A study of Mus musculus with 27 samples.

Results

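The intercalated disc is the end-to-end contact between heart muscle cells, and 10 genes that encode its adhesion proteins were described here by the H3K4 methylation regions that lie in and around them. The genes were *Cdh2*, *Dsg2*, *Dsc2*, *Dsp*, *Pkp2*, *Jup*, *Ctnna1*, *Ctnna3*, *Vcl* and *Tjp1*. Each was given the regions that met its body, or lay within 5 kb of one of its annotated transcription start sites (TSS), with an overlap of at least 1 bp. All 10 genes were found in the annotation, and together they held 362 of the 358833 regions of the merged list. The rule used gene names and positions.

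The study profiled H3K4me1, H3K4me2 and H3K4me3 by ChIP-Seq in mouse hearts at E11.5. The series comprised 27 libraries in 9 groups of 3. Of these, 24 were heart libraries (input and the 3 marks in control and mutant hearts), and 3 were KMT2D ChIP-Exo libraries from cardiomyocytes, which were not analysed here. Each genotype was represented by 3 pools of 30 hearts, and each pool was split between the input and the 3 immunoprecipitations. Control hearts were *Tnnt2::Cre; Kmt2d fl/+; mTmG/+* and mutant hearts *Tnnt2::Cre; Kmt2d fl/fl; mTmG/+*, on a C57BL/6 background. Both genotypes thus carried the Cre transgene, the mTmG fluorescent reporter and at least 1 floxed *Kmt2d* allele, and a wild-type heart was not part of the comparison. The *Tnnt2* promoter drives Cre in cardiomyocytes, whereas whole hearts were profiled, with their endocardial, epicardial and blood cells.

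The deposited values are positions only. A merged list pooled the peaks of all marks and replicates, and from it the authors drew a list of regions with decreased H3K4me1 and another with decreased H3K4me2 in mutant hearts, at a false discovery rate of their choice. The lists carry no rate per region, so whether each region meets that threshold could not be checked. No read count, fold change or replicate value accompanies a region, so its depth, the size of the decrease and the mark that formed it are unknown. Where within a region the mark decreased is also unknown, so a TSS inside a decreased region need not have lost the mark itself. No difference could be tested against the spread between pools, and a region outside a decreased list may still have changed. Fewer cells of a type and less mark per cell cannot be told apart in whole hearts. The main TSS, the most 5′ protein-coding TSS of a gene, lay in a merged region for 10 of 10 heart muscle markers, with widths of 4540 to 48800 bp. The same held for 4 of 4 epicardial markers, 4 of 6 endocardial markers (not *Pecam1* or *Tie1*), 3 of 4 red blood cell markers (not *Gata1*) and 5 of 10 markers of tissues outside the heart. A TSS lay in a decreased H3K4me2 region for 4 of the 10 heart muscle markers and 2 of the 4 red blood cell markers. This was so for 1 of the 10 markers of other tissues, 0 of the 6 endocardial and 0 of the 4 epicardial markers. Over the 15752 protein-coding genes with a TSS in a merged region the share was 29.2%. Wider TSS regions were called more often, as given below. Median main TSS regions measured 16300 bp for heart muscle, 10310 bp for endocardial, 7730 bp for epicardial, 7080 bp for red blood cell and 3120 bp for other markers. No marker of these lists had a TSS in a decreased H3K4me1 region, against 1.29% of the same 15752 genes. The part of other cell types in the results was not tested.

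N-cadherin, encoded by *Cdh2*, joins neighbouring cardiomyocytes at adherens junctions, where catenins and vinculin tie its cytoplasmic tail to actin. Desmosomes are built from the cadherins desmoglein and desmocollin and from the plaque proteins plakoglobin, plakophilin and desmoplakin, which link them to the desmin filaments. In the heart these junctions carry the force of contraction from cell to cell, and mutations in desmosomal genes are a known cause of arrhythmogenic cardiomyopathy. KMT2D places methyl groups on histone H3 lysine 4. H3K4me3 is found mainly at promoters, H3K4me1 mainly at enhancers, and H3K4me2 at both.

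To show the sequence on which these marks lie, the 250 bases before the main TSS are printed for 5 of the genes, 5′ to 3′ on the coding strand of the NCBIM37 (mm9) assembly. The first 4 genes had their TSS in a decreased region, and *Tjp1*, with a TSS region of 12900 bp in neither decreased list, is shown beside them. Capitals mark the box letters CCAAT, the TATA-type letters TATAAA, the SP/KLF letters GGGCGG, the letters AGATAA that GATA factors bind, and the MCAT letters CATTCC, on either strand. The windows are chr13:38242947-38243196 (+) for *Dsp*, chr14:21748405-21748654 (+) for *Vcl*, chr10:62892596-62892845 (+) for *Ctnna3*, chr11:100259064-100259313 (−) for *Jup* and chr7:72516126-72516375 (−) for *Tjp1*. In the *Jup* window, 14 bases also belong to an exon of a non-coding *Jup* transcript.
Dsp: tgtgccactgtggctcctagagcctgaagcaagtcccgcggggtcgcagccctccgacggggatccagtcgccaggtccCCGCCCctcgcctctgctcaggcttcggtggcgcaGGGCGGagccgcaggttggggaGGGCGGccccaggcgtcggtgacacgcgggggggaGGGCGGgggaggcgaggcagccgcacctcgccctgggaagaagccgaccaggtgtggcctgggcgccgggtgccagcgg
Vcl: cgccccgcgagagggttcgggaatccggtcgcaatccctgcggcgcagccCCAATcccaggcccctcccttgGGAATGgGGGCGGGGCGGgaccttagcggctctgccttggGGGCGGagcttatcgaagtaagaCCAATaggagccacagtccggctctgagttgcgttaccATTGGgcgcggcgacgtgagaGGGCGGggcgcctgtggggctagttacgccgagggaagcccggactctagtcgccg
Ctnna3: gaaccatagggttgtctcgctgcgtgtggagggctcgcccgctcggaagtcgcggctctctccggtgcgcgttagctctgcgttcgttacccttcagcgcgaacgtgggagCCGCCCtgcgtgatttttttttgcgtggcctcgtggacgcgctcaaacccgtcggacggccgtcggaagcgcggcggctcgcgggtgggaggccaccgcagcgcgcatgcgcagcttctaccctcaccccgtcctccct
Jup: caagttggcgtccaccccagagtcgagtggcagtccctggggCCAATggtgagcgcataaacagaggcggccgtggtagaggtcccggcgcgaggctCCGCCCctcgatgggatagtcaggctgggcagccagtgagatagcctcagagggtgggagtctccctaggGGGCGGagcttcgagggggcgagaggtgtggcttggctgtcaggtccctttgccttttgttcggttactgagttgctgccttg
Tjp1: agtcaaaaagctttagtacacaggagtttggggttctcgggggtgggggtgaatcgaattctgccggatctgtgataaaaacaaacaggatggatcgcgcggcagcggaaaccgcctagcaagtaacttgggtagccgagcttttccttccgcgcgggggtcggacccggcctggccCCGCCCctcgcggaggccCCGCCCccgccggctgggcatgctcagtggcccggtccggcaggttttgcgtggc

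All 5 windows hold the SP/KLF letters GGGCGG, with 4 matches in *Dsp* and in *Vcl*, 2 in *Jup* and in *Tjp1* and 1 in *Ctnna3*. Motifs were counted in 9 of the disc genes, without *Pkp2*, and the letters were present in all 9, against 40.1% of 22375 protein-coding promoters. These promoters were also rich in G and C, from 58.4% in *Dsc2* to 79.6% in *Cdh2*, where the median protein-coding promoter had 54.4%. Among the 8561 promoters with a GC content of 58.4% or more, 75.6% held GGGCGG. CpG dinucleotides numbered 5 in *Dsc2*, 36 in *Ctnna3* and 35 in *Cdh2*, against a median of 9 over all promoters. The CCAAT letters were present in 4 of the genes, 3 times in *Vcl* and once each in *Cdh2*, *Dsg2* and *Jup*, against 35.0% of all promoters. CATTCC, the MCAT letters bound by TEAD factors, was present in *Dsg2* and *Vcl* (11.4% of all promoters). GGAAG, the core of ETS sites, was present in 6 of the 9 (64.0%). No match was found to TATAAA (12.3% of all promoters), the E-box CACGTG (6.53%), the GATA letters AGATAA (9.31%) or the MEF2 letters, CTA and TAG with 4 bases between them (3.16%). A match describes letters in this window and does not show that a factor is bound.

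The main TSS of all 10 genes lay inside a merged region, as it did for 67.5% of the 22380 protein-coding genes. These regions were wide. The median over protein-coding genes was 3640 bp, with quartiles of 2340 and 5660 bp, and 8 of the 10 genes lay above the upper quartile. The widest, 18700 bp, was over *Jup*, followed by *Vcl* (14660 bp), *Dsp* (13660 bp), *Tjp1* (12900 bp), *Dsg2* (9080 bp), *Pkp2* (8880 bp), *Cdh2* (8020 bp) and *Ctnna1* (6420 bp). *Dsc2*, with 3480 bp, and *Ctnna3*, with 2340 bp, were the exceptions. The *Jup* region was wider than 98.8% of such regions and the *Ctnna3* region than 24.7%.

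**Figure D1:**
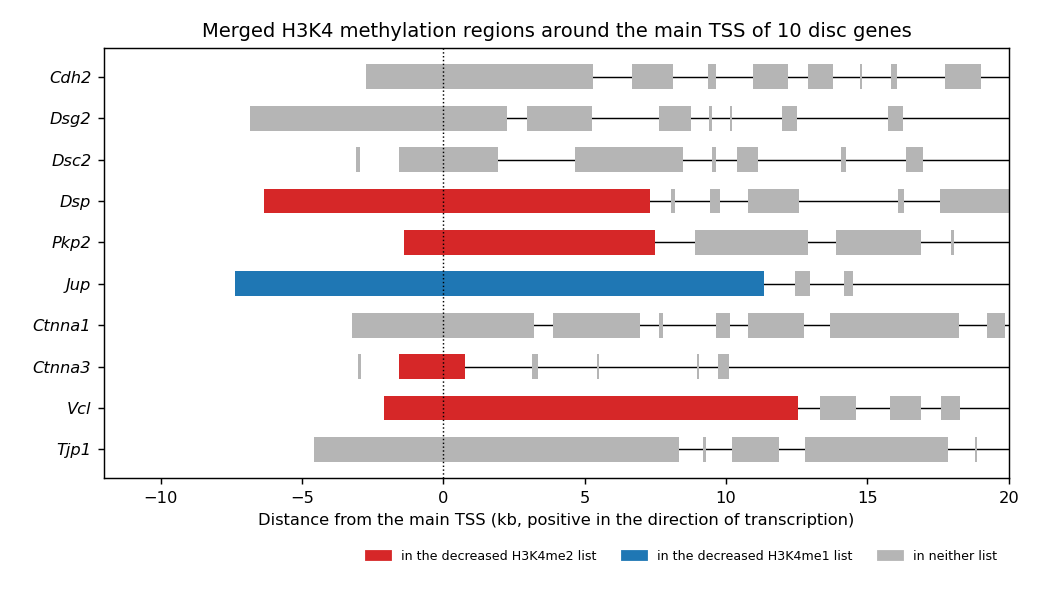
Merged regions (bars) from 12 kb before to 20 kb after the main TSS of each gene, with distance in kb along the direction of transcription and colour giving the decreased list. The 4 red TSS regions are those of Dsp, Pkp2, Ctnna3 and Vcl, the blue one of 18700 bp is that of Jup, and those of the other 5 genes are in neither list.

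With regard to the mutant hearts, 5 of the 10 genes (*Cdh2*, *Dsp*, *Pkp2*, *Ctnna3* and *Vcl*) held a region in the decreased H3K4me2 list. Over the 20025 protein-coding genes with a merged region, 28.7% did. *Jup* and *Vcl* held a region in the decreased H3K4me1 list (2 of 10), where the background was 7.08%. *Vcl* was the 1 gene with both kinds, and 4 genes (*Dsg2*, *Dsc2*, *Ctnna1* and *Tjp1*) had neither.

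A TSS lay inside a decreased H3K4me2 region in 4 genes (*Dsp*, *Pkp2*, *Ctnna3* and *Vcl*), against 29.2% of the 15752 protein-coding genes with a TSS in a merged region. For H3K4me1 this was so in 1 gene, *Jup*, against a background of 1.29%. Counted by region, 8 of the 362 (2.21%, 95% Wilson interval 1.12% to 4.30%) were in the H3K4me2 list, where 1.87% of all merged regions were. In the H3K4me1 list were 2 of the 362 (0.552%, 0.152% to 1.99%), against 0.761% of all. No region of these genes was in both lists. By region, the shares for both marks lay near the background, and the intervals cover counting error only.

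*Cdh2* encodes the classical cadherin of the cardiomyocyte. It lies on the minus strand of chromosome 18, from 16747386 to 16967755, and held 51 merged regions that covered 47.0% of its 220 kb. Its TSS region, 16962466 to 16970485, reached 2.73 kb upstream and 5.29 kb downstream and was in neither decreased list. Both of its decreased H3K4me2 regions lay far inside the gene, in intron 2 of a transcript with 16 exons. The first, of 4620 bp, ran from 16908746 to 16913365, 54.4 to 59.0 kb from the TSS. The other, of 4760 bp, ran from 16847746 to 16852505, 115 to 120 kb from the TSS.

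Intron 2 of *Cdh2* (16809008 to 16933016, 124 kb) was itself densely marked. It contained 24 merged regions that covered 76.8 kb, or 61.9% of its length, and 10 of them were at least 3 kb wide. The widest was 13960 bp (16894006 to 16907965), next to the decreased region nearer the TSS, and others measured 12080 and 10000 bp. All 3 of these were in neither list, so the decreased calls fell on neighbouring regions and not on the widest ones. A shorter coding *Cdh2* transcript starts in the same intron, inside a region of 2320 bp (16827406 to 16829725) that was also in neither list. The nearest decreased H3K4me1 region lay 1558 kb from the *Cdh2* TSS.

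**Figure D2:**
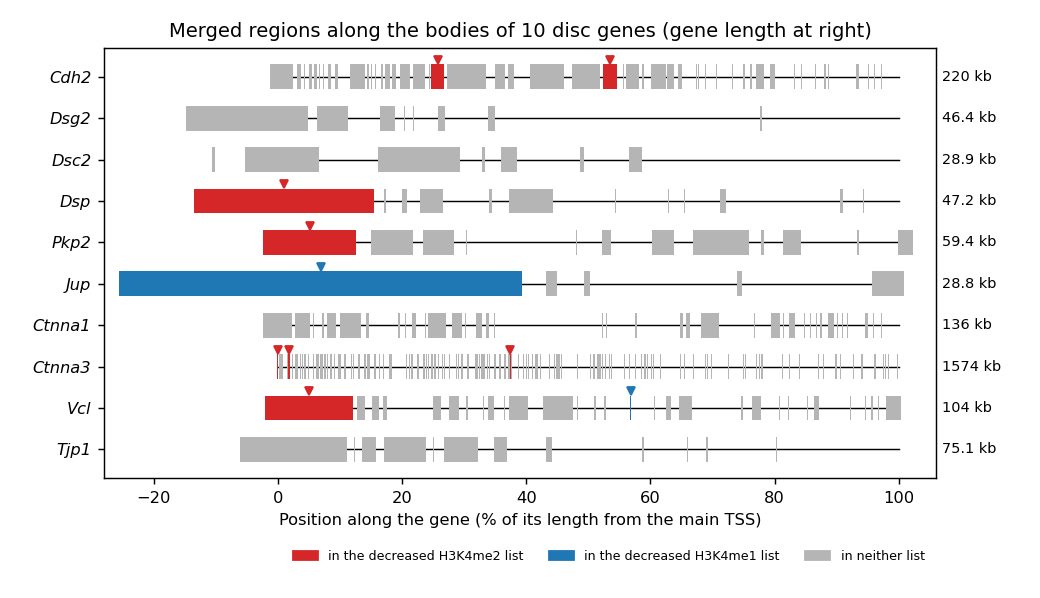
Merged regions along each gene body, with position as a percentage of gene length from the main TSS, gene length in kb at the right and triangles over the regions in a decreased list. Decreased H3K4me2 regions (red) sit at the TSS in Dsp, Pkp2, Ctnna3 and Vcl, also in introns 1 and 7 in Ctnna3, and in intron 2 in Cdh2, and decreased H3K4me1 regions (blue) sit at the Jup TSS and inside Vcl.

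*Dsg2* and *Dsc2* encode desmoglein 2 and desmocollin 2, the cadherins of the cardiac desmosome, and neither had a decreased region of either mark. *Dsg2* (chromosome 18, 20716575 to 20763022, plus strand) held 8 merged regions over 46.4 kb. Its TSS region of 9080 bp (20709746 to 20718825) extended further upstream, 6.83 kb, than downstream, 2.25 kb. *Dsc2* (20189134 to 20218055, minus strand) held 7 merged regions over 28.9 kb. Its TSS region measured 3480 bp (20216126 to 20219605), and a wider region of 3820 bp (20209586 to 20213405) lay over exon 2. The nearest decreased regions were distant. For *Dsg2*, H3K4me1 was called decreased 103 kb from the TSS, in *Dsg4*, and H3K4me2 440 kb away. For *Dsc2* the corresponding distances were 396 kb, to the same *Dsg4* region, and 903 kb.

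Both genes belong to a cluster of 9 desmosomal cadherin genes that spans 644 kb of chromosome 18 (20119431 to 20763022). The cluster held 97 merged regions, of which 15 belonged to *Dsc2* or *Dsg2*. The others had a median width of 160 bp and a widest of 4300 bp, against 9080 bp at the *Dsg2* TSS. The main TSS lay in a merged region in 3 of the 9 genes, *Dsc2*, *Dsg2* and *Dsc3*, the last with 680 bp. In the whole cluster 1 region was in a decreased list, the 80-bp H3K4me1 region in *Dsg4*, which encodes a desmoglein of hair and skin.

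Of the plaque genes, *Dsp* and *Pkp2* had a TSS inside a decreased H3K4me2 region and *Jup* inside a decreased H3K4me1 region. *Dsp* encodes desmoplakin, which binds the desmin filaments, and its promoter sequence is printed above. The gene (chromosome 13, 38243197 to 38290446, plus strand, 47.2 kb) held 12 merged regions, 9 of them under 500 bp. The decreased H3K4me2 region, 38236846 to 38250505, measured 13660 bp and ran from 6.35 kb upstream to 7.31 kb downstream, over exon 1 and 52.8% of intron 1. It also held the start of *Gm10129*, an annotated coding gene on the opposite strand inside *Dsp*, so the call cannot be assigned to *Dsp* alone. The widest of the remaining *Dsp* regions, 3380 bp in intron 4, was in neither list.

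*Pkp2* encodes plakophilin 2, an armadillo-repeat protein of the desmosomal plaque. On chromosome 16 (16213411 to 16272805, plus strand, 59.4 kb), it held 12 merged regions with a median width of 1570 bp, the highest median of the 10 genes. The decreased H3K4me2 region, 16212026 to 16220905, measured 8880 bp and reached 1.39 kb upstream and 7.49 kb downstream, across 61.7% of intron 1. The next regions along the gene, 4000 bp over exons 2 and 3 (16222306 to 16226305) and 3000 bp behind it, were in neither list. Nor was a region of 5340 bp in intron 6.

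*Jup* encodes plakoglobin, a catenin that serves both desmosomes and adherens junctions. It was the 1 gene of the 10 whose TSS region was in the decreased H3K4me1 list. The region, 100247726 to 100266425 on chromosome 11, measured 18700 bp, reached 7.36 kb upstream and 11.3 kb downstream of the minus-strand TSS, and covered 99.8% of intron 1. It contained 4 of the 8 annotated *Jup* TSS positions and the start of the long non-coding RNA *Gm12348*. *Jup* (100230272 to 100259077, 28.8 kb) held 4 other merged regions, of 200 to 1520 bp, in neither list. H3K4me2 was not called decreased in *Jup*. The nearest such region, 7560 bp over the starts of *Leprel4* and *Fkbp10* (100271406 to 100278965), lay 12.3 kb upstream of the *Jup* TSS.

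The alpha-catenins join the cadherin complex to actin. Of the pair expressed in heart muscle, *Ctnna3* held decreased H3K4me2 regions and *Ctnna1* held none. In their classes by number of merged regions, 53.0% and 43.4% of protein-coding genes held one. A region that was not called may still have changed. *Ctnna1*, the widely expressed alpha-catenin, had 38 merged regions over 136 kb (chromosome 18, 35278542 to 35414427, plus strand) and none in a decreased list. Its TSS region of 6420 bp (35275326 to 35281745) was nearly symmetric, with 3.22 kb upstream and 3.20 kb downstream. The nearest decreased regions were 89.0 kb away for H3K4me1 and 162 kb away, at *Hspa9*, for H3K4me2.

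*Ctnna3* encodes alpha-T-catenin, which is found mainly in heart and testis and binds plakophilin 2. It was the longest of the 10 genes, 1574 kb on chromosome 10 (62892846 to 64466415, plus strand). It held 187 merged regions, 134 of them under 500 bp, which covered 5.93% of the body. *Ctnna3* and *Cdh2* together supplied 238 (65.7%) of the 362 regions. In *Ctnna3*, 3 regions were in the decreased H3K4me2 list, the highest number among the 10 genes. The first lay over the main TSS (62891266 to 62893605, 2340 bp). The second, 6420 bp (62917666 to 62924085), lay in intron 1, 24.8 to 31.2 kb downstream, and held the TSS of a shorter coding *Ctnna3* transcript. A wider region further into intron 1, 6800 bp (62937126 to 62943925), was in neither list. Of the 5 annotated TSS positions, 3 were in no merged region.

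The third decreased H3K4me2 region of *Ctnna3* was 60 bp wide, the narrowest width in the merged list. It lay in intron 7, 588 kb from the main TSS. The same 60 bp also lie in the body of *Lrrtm3*, a gene on the opposite strand (63391220 to 63553025). The call therefore cannot be assigned to *Ctnna3* alone. At the other end of the scale from the wide TSS regions, this region and the narrow decreased H3K4me1 region of *Vcl* are short enough to print whole. They are given on the plus strand of NCBIM37, with capitals as above. The windows are chr10:63480606-63480665 for *Ctnna3* and chr14:21807706-21807865 for *Vcl*.
Ctnna3 intron 7: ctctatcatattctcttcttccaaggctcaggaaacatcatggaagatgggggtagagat
Vcl intron 6: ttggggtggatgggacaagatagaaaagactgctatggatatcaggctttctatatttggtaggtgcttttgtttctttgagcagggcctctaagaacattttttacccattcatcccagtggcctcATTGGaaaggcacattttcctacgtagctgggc

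*Vcl* encodes vinculin, which binds actin and is recruited to alpha-catenin under tension. It lies on chromosome 14 (21748655 to 21852895, plus strand, 104 kb) and held 30 merged regions. The TSS region, 21746546 to 21761205, measured 14660 bp and was in the decreased H3K4me2 list. It reached 2.11 kb upstream and 12.6 kb downstream, over 32.5% of an intron 1 of 37.8 kb. The decreased H3K4me1 region, with its 160 bases printed above, lay in intron 6, 59.1 kb from the TSS. The lists thus met different places in *Vcl*. A second coding TSS lay in a region of 60 bp over exon 14 (21834126 to 21834185), in neither list.

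*Tjp1* encodes ZO-1, a scaffold that borders the gap junctions of the disc. On chromosome 7 (72441051 to 72516125, minus strand, 75.1 kb) it held 12 merged regions and no decreased one. Its TSS region of 12900 bp (72507786 to 72520685) was wider than 96.1% of such regions and covered 49.7% of intron 1. A decreased H3K4me2 region of 2980 bp (72537666 to 72540645) lay 21.5 kb upstream of the TSS, outside the 5-kb window, and held no coding TSS. The nearest decreased H3K4me1 region was 213 kb away. Of the 4 annotated *Tjp1* TSS positions, 2 lay in no merged region.

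Among the 10 genes the number of merged regions varied widely. *Jup*, with 5 regions, and *Ctnna3*, with 187, bracketed the range, and the median protein-coding gene had 5.00. Per 100 kb the genes held from 11.9 regions (*Ctnna3*) to 28.8 (*Vcl*), around a median of 22.2 for coding genes of at least 20 kb. The share of the body covered ranged from 5.93% in *Ctnna3* and 15.1% in *Dsg2* to 47.0% in *Cdh2* and 47.4% in *Jup*, with a coding median of 20.5%. By place, 311 of the 362 regions (85.9%) were intronic, 36 (9.94%) met an exon but no TSS, 13 (3.59%) met a TSS and 2 lay outside the body. *Ctnna3* supplied 179 of the 311 intronic regions and *Cdh2* 45. The intronic share ran from 1 of 7 regions in *Dsc2* to 179 of 187 in *Ctnna3*. Over the 362 regions together, 216 (59.7%) were under 500 bp, against 59.1% of all merged regions. *Ctnna3* supplied 134 of the 216, so this share rests largely on 1 gene. By gene, the share ran from 4 of 12 regions in *Pkp2* to 9 of 12 in *Dsp*.

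**Figure D3:**
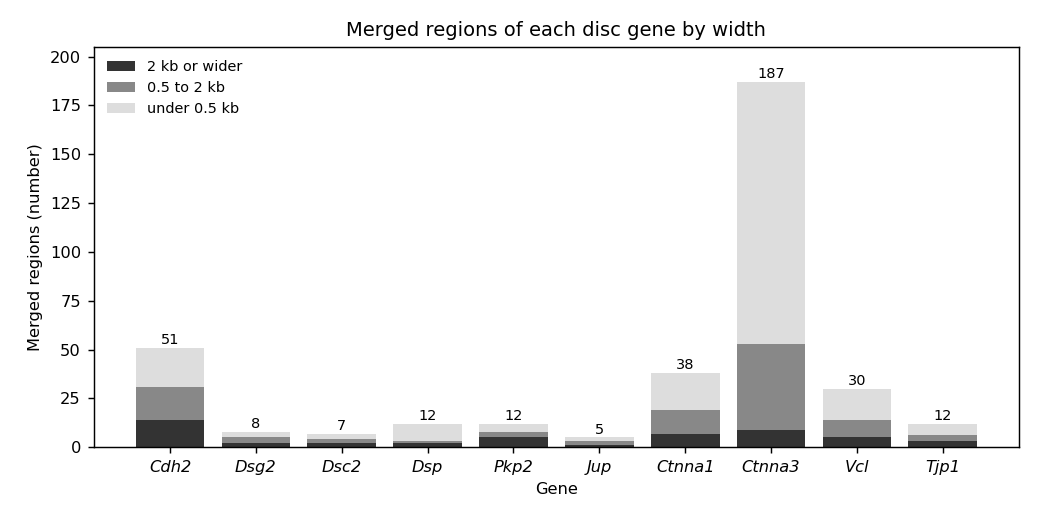
Number of merged regions of each gene (vertical axis), stacked by width. Ctnna3 has 187 regions, of which 134 are under 0.5 kb, whereas Cdh2 has 51, of which 14 are 2 kb or wider.

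The decreased H3K4me2 regions of these genes ranged from 60 to 14660 bp, with a median of 5590 bp against 3180 bp over the whole list. By place, 5 of the 8 lay over a TSS of their own gene and 3 in an intron. A place over a TSS was common in the whole list. The main TSS of a coding gene lay in 657 of its 825 regions of 8 kb or more. The same held for 1479 of its 1792 regions of 4 to 8 kb and 1367 of its 1863 of 2 to 4 kb. Over all merged regions of 2 kb or more, wider classes were more often called, from 7.11% at 2 to 4 kb to 27.1% at 8 kb or more, so the counts were also read by width class. For main TSS regions of 8 kb or more, 44.5% of 1477 protein-coding regions were in the H3K4me2 list (95% Wilson interval 42.0% to 47.0%), and 3 of 7 from the disc genes were (*Dsp*, *Pkp2* and *Vcl*, not *Cdh2*, *Dsg2*, *Jup* or *Tjp1*). At 4 to 8 kb the share was 35.4%, and *Ctnna1* was not called. At 2 to 4 kb it was 26.5% (25.3% to 27.8%), and *Ctnna3* but not *Dsc2* was called. The class shares of the 10 genes add up to 4.00, and 4 were called.

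For H3K4me1 the share at main TSS regions was lower in each width class above 500 bp, reaching 2.51% (1.82% to 3.43%) at 8 kb or more, where *Jup* was 1 of 7. The class shares for H3K4me1 add up to 0.190, with 1 gene called. That gene, *Jup*, had a region wider than 98.8% of main TSS regions. The top class has no upper limit, so its share may be too low for a region of that width. The share also rose with the number of regions per gene. Of protein-coding genes with at least 41 merged regions 53.0% held a decreased H3K4me2 region, as did *Cdh2* and *Ctnna3*, compared with 21.3% of those with 1 to 5 regions, the class of *Jup*. Between them, the share was 33.7% at 6 to 15 regions, where 2 of 5 disc genes held one. At 16 to 40 regions it was 43.4%, and 1 of 2 disc genes held one. A decreased H3K4me1 region was present in 1.91% of genes in the class of *Jup* and in 18.1% of those with 16 to 40 regions, the class of *Vcl* and *Ctnna1*. It was present in 8.05% of genes with 6 to 15 regions, where 0 of 5 disc genes had one, and in 37.3% of those with at least 41, where neither *Cdh2* nor *Ctnna3* did.

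**Figure D4:**
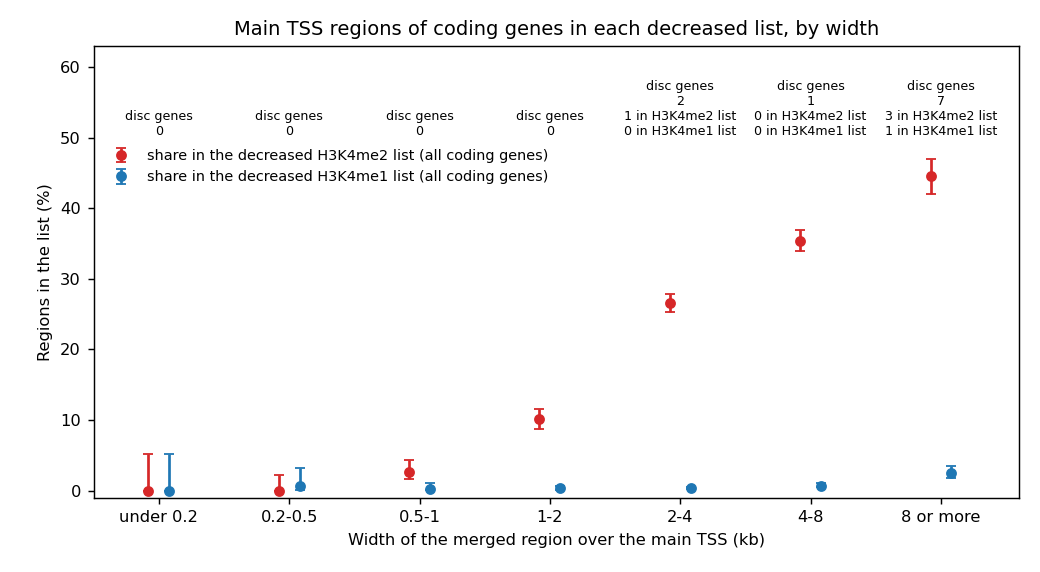
Percentage of main TSS regions of protein-coding genes in each decreased list (points, with 95% Wilson intervals) against region width in kb, with the number of disc genes in each class written above. The H3K4me2 share is 44.5% at 8 kb or more, where 3 of 7 disc genes are in that list.

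Other genes of cell junctions were counted in the same way, from a list of 43. A TSS lay in a merged region in 36 of them, 12 held a decreased H3K4me2 region (28.7% of all protein-coding genes with a merged region did) and 8 a decreased H3K4me1 region (7.08%). Of these 8, *Cdh4*, *Cdh13*, *Ctnnd2*, *Pkp4* and *Tln2* held 53 to 177 merged regions, in the class of at least 41 where 37.3% were called. *Dsg4* and *Ppl* fall in the class with 8.05% called and *Xirp1* in that with 1.91%. Of the 36 genes with a TSS in a merged region, 7 had one inside a decreased H3K4me2 region, against 29.2% of such protein-coding genes. A TSS was inside a decreased H3K4me1 region in 1 of the 36, against 1.29%. Catenins held 5 of the 12 genes with decreased H3K4me2, out of 6 listed, against the same background of 28.7%. *Ctnnb1*, which encodes beta-catenin, the direct partner of N-cadherin, had a decreased region of 13520 bp over an annotated TSS other than its main TSS, which lay in no merged region. *Ctnnd1* (p120-catenin) had one of 5400 bp over its main TSS. In *Arvcf*, its relative, the decreased region of 5200 bp lay over another TSS, and the main TSS region of 2700 bp was not called. In *Ctnna2* and *Ctnnd2* the region was intronic and 60 bp wide, and in *Ctnnd2* it was in both lists. Those genes held 98 and 128 merged regions, in the class of at least 41 where 53.0% of genes were called. *Ctnnb1* and *Ctnnd1*, with 8 and 9 merged regions, fall in the class with 33.7% called, and *Arvcf*, with 17, in the class with 43.4%.

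Among 10 actin linkers, 4 had decreased H3K4me2 (*Tln1*, *Tln2*, *Enah* and *Lmo7*), against 28.7% of all genes. *Tln2* and *Lmo7*, with 89 and 52 merged regions, fall in the class with 53.0% called, and *Enah*, with 32, in the class with 43.4%. The region over the start of *Tln1*, which encodes the vinculin partner talin 1, measured 9180 bp and also held the start of *Creb3*. *Xirp1*, which encodes a disc protein that binds actin, had a TSS region of 9940 bp in the decreased H3K4me1 list, the only one of the 43 and the same pattern as *Jup*. *Pkp4*, a relative of *Pkp2*, had a decreased H3K4me2 region over its TSS (5920 bp) that also held the start of *Ccdc148*. *Pkp4* held a further decreased H3K4me2 region and 2 decreased H3K4me1 regions, all intronic. *Cgn*, the gene of the tight junction protein cingulin, had one of 2880 bp. The other 7 desmosomal cadherins had no decreased H3K4me2 region, and 1 of them had a TSS in a merged region. These 7 genes held 1 to 8 merged regions each, in the classes with 21.3% and 33.7% called. For classical cadherins, *Cdh4* held 5 decreased H3K4me1 regions and 1 decreased H3K4me2 region, all intronic, and *Cdh13* 2 of H3K4me1. *Cdh4*, *Cdh13* and *Pkp4*, with 82, 177 and 53 merged regions, fall in the class with 37.3% called for H3K4me1 and 53.0% for H3K4me2. *Ppl*, a plaque gene, held 1 of H3K4me1.

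**Figure D5:**
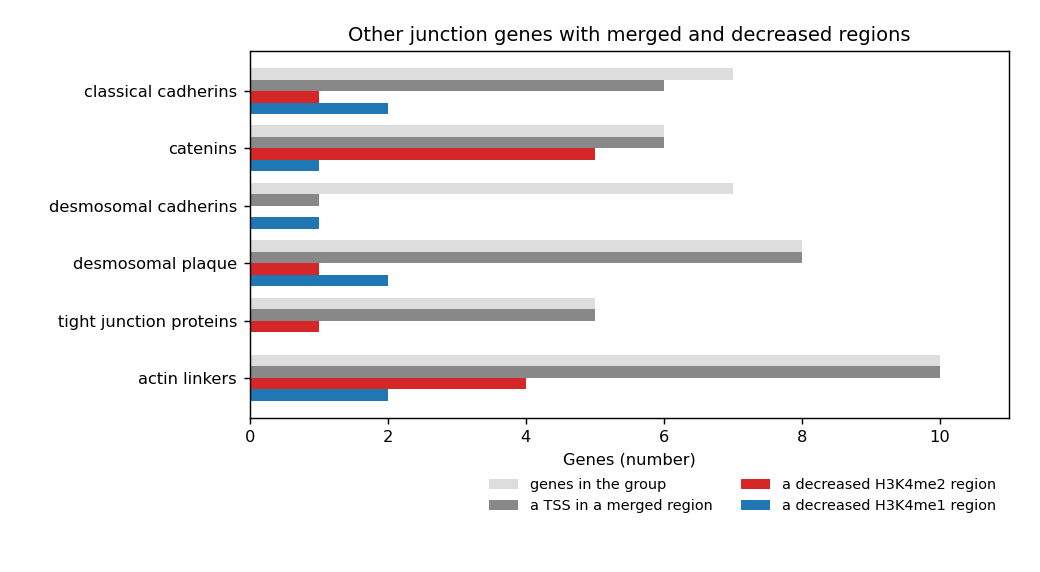
Number of other junction genes in each group (light grey), with a TSS in a merged region (dark grey), with a decreased H3K4me2 region (red) and with a decreased H3K4me1 region (blue). Of 6 catenins 5 have a decreased H3K4me2 region, and of 7 further desmosomal cadherins none does. The share over all protein-coding genes with a merged region is 28.7%. The 7 desmosomal cadherins hold 1 to 8 merged regions each, where 21.3% (1 to 5 regions) and 33.7% (6 to 15) of genes are called. The 5 called catenins hold 8 to 128 each, where 33.7% (6 to 15), 43.4% (16 to 40) and 53.0% (at least 41) are called.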

How the data were processed

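Chromatin from control and mutant E11.5 hearts was sequenced by the authors, and the submitters' processing notes name CASAVA 1.8.2, FastQC, Bowtie2, Bowtie and SAMtools, with build mm9. The decreased lists rest on a false discovery rate threshold set by the authors. The peak caller and the test are not given in the sources used here. The deposited files are 3 lists of positions (chromosome, start and end), with no count, score or replicate value. Groups came from the sample titles.

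Every decreased region had an identical merged region. Regions were joined to GENCODE vM1 genes on NCBIM37 by an overlap of at least 1 bp with the body or a window of 5 kb around each TSS, in Python 3.11.15, numpy 2.4.6 and scipy 1.17.1, after the join was tested on simulated data. Figures used matplotlib 3.10.9. Shares carry 95% Wilson intervals. No test was run. Backgrounds were all merged regions or all protein-coding genes. Named genes were the 10 disc genes, genes starting inside their described regions, and listed junction genes with a decreased region. *Leprel4*, *Fkbp10*, *Hspa9*, *Dsc3*, *Ccdc148*, *Creb3*, *Gm10118*, *Lrrtm2* and *Lrrtm3* were named after their values were seen. The genes and lists were chosen with earlier results of these data known. A junction gene and the *Pkp2* promoter are not reported here. Alternatives changed the window, overlap, least width, transcripts, base-pair weighting and *Ctnna3*.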

Additional observations from a re-analysis of the deposited data

How the results depend on the processing

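Of 34 alternative values over 6 results, 29 stayed within 1.5 times the count or within the Wilson interval of the share. With regions of at least 500 bp, 1 gene held a decreased H3K4me1 region, since the *Vcl* region is narrower, and the H3K4me2 share of regions was 4.79% (3.60% of all merged regions). With at least 1000 bp it was 7.69% (6.12% of all). The H3K4me1 share in the same settings was 0.685% (1.33% of all) and 1.10% (2.06% of all). By covered base pairs the shares were 13.8% for H3K4me2 (9.09% of all) and 4.69% for H3K4me1 (2.49% of all), where the 18700-bp *Jup* region carries most of the weight. Without *Ctnna3* the share for H3K4me2 was 2.86% (5 of 175 regions, 1.87% of all). For H3K4me1 it was 1.14%, which rests on 2 of the 175 regions (0.761% of all). A window of 50 kb raised the genes with decreased H3K4me2 from 5 to 7, with *Jup* and *Tjp1* added. No paired analysis was possible because the lists carry no replicate values. For the same reason no replicate could be left out, and the depth of the libraries, which limits what could be called, is unknown.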

Other observations

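*Ctnna1* and *Ctnna3* each contain, on the opposite strand in their intron 7, a gene of the same family of neuronal synaptic adhesion proteins. *Ctnna3* intron 7 also holds *Gm10118*, whose start lay in no merged region. *Lrrtm2* starts inside *Ctnna1*, in a merged region of 3920 bp (chromosome 18, 35371166 to 35375085), and *Lrrtm3* starts inside *Ctnna3*, in a region of 4360 bp (chromosome 10, 63548706 to 63553065). Both regions were counted with the alpha-catenin that contains them, and both were in neither decreased list. The 60-bp decreased H3K4me2 region of *Ctnna3* intron 7 also lay inside the body of *Lrrtm3*, away from its start. The *Lrrtm3* region was the only one of 3 kb or more among the 60 merged regions of *Ctnna3* intron 7, which spans 398 kb.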
